A study of Mus musculus with 9 samples.

Results

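Messenger levels of the proteins that build ribosomes were examined in mouse colon. The genes were chosen by name: symbols that begin with Rpl or Rps and a number, without the Rps6k kinases, plus Rplp0, Rplp1, Rplp2 and Rpsa for the cytosolic ribosome, and symbols that begin with Mrpl or Mrps and a number for the mitochondrial ribosome. This gave 93 cytosolic and 78 mitochondrial genes, 171 of the 21959 genes in the table. Of these, 87 cytosolic and 77 mitochondrial genes passed the filter on low counts and were tested, among 14921 tested genes. The cytosolic genes comprised 77 that encode subunit proteins (46 of the large and 31 of the small subunit), 9 copies such as Rpl3l and Rpl22l1, 6 with pseudogene names, and Rps19bp1, which encodes a protein that binds Rps19. The mitochondrial genes comprised 49 named for the large and 29 named for the small subunit. Some names do not match the known place of the protein: in human ribosome structures Mrps18a and Mrps30 sit in the large subunit, and Mrps36 is known as a part of the alpha-ketoglutarate dehydrogenase complex.

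All 9 libraries came from colon of wild-type mice, in 3 groups of 3 biological replicates by the series description. The CDs group received dextran sulfate sodium (DSS), a sulfated polymer that injures the colon lining and causes colitis, together with lotus node charcoal carbon dots, which are nanometre-sized carbon particles. The Model group received DSS alone, and the Blank group received no treatment. The sources used here do not give strain, age, doses or days.

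Cytosolic ribosomes translate nuclear messengers, and they pair a small subunit that reads the messenger with a large subunit that joins the amino acids. In vertebrates the messengers of their proteins begin with a run of pyrimidines, the terminal oligopyrimidine (TOP) motif, through which mTOR signalling controls their translation. Mitochondrial ribosomes are built from nuclear-encoded proteins and mitochondrial rRNA, and they make only the few respiratory chain proteins that mitochondrial DNA encodes.

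Counted reads numbered 13868864 to 19940300 a library, over 16612 to 17120 detected genes. Finding no read allows a level of up to 0.142 to 0.221 CPM, the floor of 3 reads, for counting error alone; CPM are counts scaled to library size after TMM scaling. Some libraries held more reads of genes known as markers of other organs. The summed level of 12 pancreatic acinar genes was 139 to 303 CPM in CDs, 7626, 26.4 and 63913 CPM in Model 1, 2 and 3, and 162 to 228 CPM in Blank. The summed level of 8 prostate and seminal genes was 150.4 to 287 CPM in CDs, 162 to 249 CPM in Model and 83.4, 1628 and 292 CPM in Blank 1, 2 and 3. Counts of called members of the cytosolic and the mitochondrial set are also given without Model 1, Model 3 and CDs 1, and without Blank 2 and Blank 3. CDs 1 and Blank 3 stood little above libraries that were kept. Acinar sums were 303 CPM in CDs 1 and 228 in Blank 2, and prostate sums 292 CPM in Blank 3 and 287 in CDs 2. These fits leave 1 Model or 1 Blank library, so fewer calls cannot be laid to the marker genes. A gene was called when its edgeR p, adjusted over all tested genes, was under 0.05; adjusted p-values below are edgeR's, and SE is the standard error of a log2 fold change. P-values rest on the spread between libraries within groups of 3, with 1 estimate per gene that all 9 libraries share.

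The start regions of 8 members described below are shown first, so that those with a pyrimidine run or an ETS core, features for which these genes are known, can be set beside those without. Mrps31 holds neither. Each line holds 100 bases from 80 before to 20 from the annotated start onward, read 5′ to 3′ on the gene's strand from the RefSeq promoter table of GRCm38.p6, and capitals mark an oligopyrimidine run within 20 bases of the start or the letters CGGAAG, the core that ETS factors bind, on either strand. The first 4 are cytosolic and the last 4 mitochondrial.
Rps26: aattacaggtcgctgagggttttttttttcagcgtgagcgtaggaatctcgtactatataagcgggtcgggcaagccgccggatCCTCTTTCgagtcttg
Rpl15: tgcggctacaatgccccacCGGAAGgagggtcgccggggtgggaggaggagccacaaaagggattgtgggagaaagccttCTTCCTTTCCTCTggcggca
Rpl7a: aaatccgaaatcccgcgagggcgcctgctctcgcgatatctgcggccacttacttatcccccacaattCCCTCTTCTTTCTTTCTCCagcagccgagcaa
Rps27: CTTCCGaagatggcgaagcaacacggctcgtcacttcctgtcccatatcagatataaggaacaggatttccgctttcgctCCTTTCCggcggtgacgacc
Mrps31: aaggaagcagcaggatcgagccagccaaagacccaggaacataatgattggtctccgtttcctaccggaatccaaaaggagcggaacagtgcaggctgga
Mrps9: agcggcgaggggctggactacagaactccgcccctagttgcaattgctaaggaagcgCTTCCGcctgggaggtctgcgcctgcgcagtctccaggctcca
Mrpl9: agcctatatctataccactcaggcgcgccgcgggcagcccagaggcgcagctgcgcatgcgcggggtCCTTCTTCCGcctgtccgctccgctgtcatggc
Mrpl12: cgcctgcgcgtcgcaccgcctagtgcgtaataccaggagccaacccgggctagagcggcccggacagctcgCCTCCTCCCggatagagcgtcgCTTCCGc

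The windows lie at chr10:128626487-128626586 (minus strand) for Rps26, chr14:18270967-18271066 (minus strand) for Rpl15, chr2:26910727-26910826 (plus strand) for Rpl7a, chr3:90213629-90213728 (minus strand) for Rps27, chr8:22411260-22411359 (plus strand) for Mrps31, chr1:42851153-42851252 (plus strand) for Mrps9, chr3:94443256-94443355 (plus strand) for Mrpl9 and chr11:120484557-120484656 (plus strand) for Mrpl12. All are from the same RefSeq table. The build of the deposited table is unknown here, and its coordinates for these genes differ, so the 2 coordinate systems were not combined. The deposited table puts Rpl15 on the plus strand.

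Promoters of 300 bases (250 before the start and 50 from it on) were found for 67 of 93 cytosolic genes, 69 of 78 mitochondrial genes and 11731 tested genes. A run that opens at the start base itself, C followed by at least 4 C or T on the gene's strand, was found in 14 of 67 cytosolic genes (20.9%), in 0 of 69 mitochondrial genes and in 2.95% of all tested genes. Within 20 bases of the start, C followed by at least 5 C or T was found in 64.2% of cytosolic, 37.7% of mitochondrial and 34.7% of all tested genes. The annotated start can lie some bases from the start used in colon, and only the wider search allows for that. CGGAAG on either strand was found in 65.7% of cytosolic, 56.5% of mitochondrial and 31.3% of all tested genes. This ETS spelling was chosen after sequences were seen, and a match can overlap a pyrimidine run, as in Mrpl9. AAGATGGC, a YY1 core, was found on either strand in 8.96%, 17.4% and 4.63% of these genes in the same order. TATAAA was found in 10.4%, 7.25% and 9.82%, and the E-box CACGTG in 8.96%, 7.25% and 11.0%. These are matches of letters in a window and describe no binding.

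Cytosolic subunit genes had a higher median level than mitochondrial ones. In FPKM, the deposited reads divided by gene length and library total, which allows levels of different genes to be compared, the median over the 77 subunit genes was 140.6, and 54 of them exceeded 100 FPKM. The highest mean levels over all 9 libraries were 827 FPKM for Rps3a1, 653 for Rps15, 568 for Rplp0 and 532 for Rplp1. The 78 mitochondrial genes had a median level of 9.41 FPKM, and 24 of them were under 5 FPKM. The highest of these were Mrps21 at 50.1 FPKM, Mrpl12 at 29.6, Mrps23 at 25.4 and Mrpl24 at 22.6.

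Subunit proteins are needed in equal numbers, yet 3 canonical cytosolic members were counted at very low levels: Rpl24 at 0.677 FPKM, Rps10 at 1.33 and Rpl13a at 3.09. These 3 were singled out after their values were seen. In the deposited table Rps10 overlaps Gm49804 and Rpl13a overlaps Gm45713, and no overlapping gene was listed for Rpl24. In all, 19 of 93 cytosolic and 25 of 78 mitochondrial members overlap another gene of the table, among them Rpl15, Rpl3 and Mrpl9. Overlap here is between whole spans from start to end, introns included, and overlap of exons was not examined. The library protocol does not mark the strand, so reads in stretches that both genes of a pair share cannot be told apart. Reads of near-identical copies may have been divided or dropped in counting. Levels of members with such reads are uncertain. No read was found for Rpl10l, Rpl36-ps4, Rps18-ps6 or Mrpl53, and Rpl36al, Rpl39l and Rpl3l were too low to be tested.

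On average, reads of both sets made up a smaller share of the Model libraries than of the Blank libraries. By the unscaled share, these groups did not overlap for the mitochondrial set and overlapped for the cytosolic set. The 93 cytosolic genes took 2.84%, 2.47% and 2.02% of counted reads in CDs 1, 2 and 3, 2.04%, 2.62% and 2.08% in Model and 2.60%, 2.79% and 2.69% in Blank. Means were 2.44 ± 0.412% in CDs, 2.25 ± 0.323% in Model and 2.70 ± 0.0932% in Blank (SD, n = 3 each). By this share Model 2 lay within the range of the Blank libraries, so the groups overlapped, and so did CDs and Blank. After TMM scaling neither group overlapped Blank. The cytosolic sums were then 20537 to 26157 CPM in CDs, 20627 to 24771 in Model and 26927 to 28941 in Blank. With acinar and mitochondrially encoded genes taken out of the total, Model (2.17% to 2.72%) lay below Blank (2.79% to 2.99%). CDs (2.13% to 2.94%) still overlapped Blank. For the 78 mitochondrial genes the shares were 0.191%, 0.177% and 0.158% in CDs, 0.168%, 0.163% and 0.151% in Model and 0.189%, 0.199% and 0.210% in Blank. Each Model library lay below each Blank library here, and CDs 1 lay within the Blank range by this unscaled share. The TMM-scaled mitochondrial sums were 1613 to 1760 CPM in CDs, 1543 to 1695 in Model and 1955 to 2148 in Blank, without overlap with Blank. Without acinar and mitochondrially encoded genes in the total, CDs (0.167% to 0.198%) also lay below Blank (0.203% to 0.225%). No test was run on these sums. The ratio of cytosolic to mitochondrial reads was 12.7 to 14.9 in CDs, 12.2 to 16.1 in Model and 12.8 to 14.1 in Blank, so that it overlapped between all groups.

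**Figure D1:**
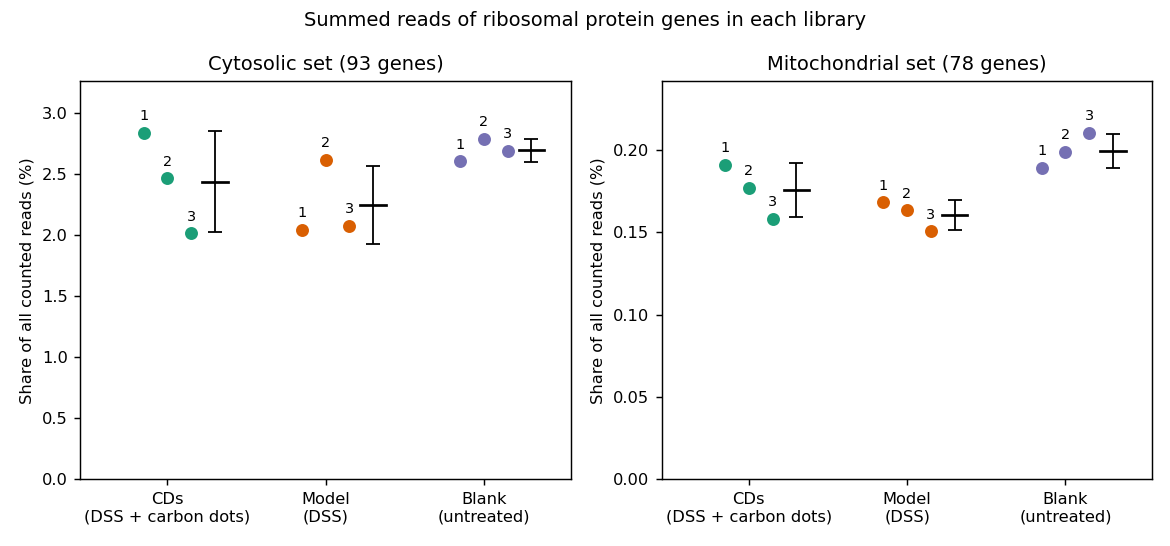
Share of all counted reads (percent, vertical axis from 0) taken by the cytosolic set (left) and the mitochondrial set (right) in each library of CDs, Model and Blank; points are libraries numbered by replicate, and bars to their right are mean ± SD (n = 3). In the cytosolic panel Model 2 at 2.62% lies among the Blank libraries, and in the mitochondrial panel all 3 Model libraries (0.151% to 0.168%) lie below all 3 Blank libraries (0.189% to 0.210%).

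Model was compared with Blank to ask what DSS did to these genes. Every called cytosolic member was lower in Model: 24 of 87 tested were called lower (27.6%) and 0 higher (0 also with DESeq2 and limma), beside 19.6% of all tested genes called lower and 24.5% called higher. The median log2 fold change was -0.30, a level 18.9% lower in Model than in Blank, against a median of -0.03 over all tested genes. For 83 of 87 the fold change was below 0, as it was for 52.1% of all tested genes. The Model and Blank libraries did not overlap for 47 members, all lower in Model (54%), beside 31.0% of all genes lower and 30.0% higher without overlap. At an unadjusted p under 0.05, 32 members passed by edgeR, 0 of them higher, beside 53.0% of all tested genes, with 28.0% higher. In bulk tissue, fewer cells of a type and less RNA per cell cannot be told apart.

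This count rested on few libraries. It was 19 with the acinar and mitochondrially encoded genes taken out of the table, 5 without Model 1, Model 3 and CDs 1 (median -0.14), and 0 without Blank 2 and Blank 3, with 1 Model library or 1 Blank library left whose spread is taken to equal that of the other groups. With single libraries left out it was 4 without Model 3, 9 without Model 1, 8 without Blank 1, 6 without Blank 2 and 6 without Blank 3. It was 16 to 28 without any of the others. Of all tested genes, the fits without Model 3, Model 1, Blank 1, Blank 2 and Blank 3 called lower 1478 of 15098, 3316 of 15151, 1842 of 15103, 1769 of 15108 and 1885 of 15140. In each of these fits the cytosolic share called lower was below that of all tested genes.

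Large subunit members supplied most of the calls, 17 of 46 (37%), beside 5 of 31 small subunit members (16.1%). Of all tested genes 19.6% were called lower, so the small subunit share was below this background. The difference between subunits was not tested. Median log2 fold changes were -0.32 for the large and -0.27 for the small subunit. Rps26, a small subunit protein at the channel where the messenger leaves and a gene mutated in human Diamond-Blackfan anaemia, had the lowest fold change among subunit members. It was at 347, 292 and 317 CPM in the CDs libraries, 328, 338 and 354 CPM in the Model libraries and 528, 564 and 519.5 CPM in the Blank libraries. Every CDs and Model library lay below every Blank library. The log2 fold change was -0.66 (SE 0.11; adjusted p = 0.0023), a level 36.7% lower in Model. In the deposited table the gene (ENSMUSG00000025362) lies at chr10:128460403-128462616 on the minus strand.

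Rpl23a, a large subunit protein at the mouth of the exit tunnel where signal recognition particle docks, fell as well. It was measured at 12.8, 12.01 and 13.7 CPM in the CDs libraries, 14.4, 16.9 and 12.4 CPM in the Model libraries and 22.4, 20.01 and 21.7 CPM in the Blank libraries. All 6 DSS-treated libraries lay below Blank, although its level of 19.1 FPKM was low for the set and its reads may include those of the overlapping Tlcd1. It had a log2 fold change of -0.55 (SE 0.14; adjusted p = 0.0129), and the call was lost in 3 of 21 alternatives, the fit without Model 3 among them (adjusted p up to 0.131).

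Rpl15, a protein of the large subunit core, had 303, 268 and 259 CPM in the CDs libraries, 248, 268 and 256 CPM in the Model libraries and 361, 370.1 and 361 CPM in the Blank libraries. The CDs and Model libraries overlapped, and all 6 lay below Blank. Its log2 fold change was -0.50 (SE 0.10; adjusted p = 0.00534). Rpl7a, another large subunit protein, averaged 407 ± 11.4 CPM in Model and 569.7 ± 17.5 CPM in Blank (SD, n = 3 each), a log2 difference of -0.48 (SE 0.11; adjusted p = 0.00965). Rpl3, which reaches toward the peptidyl transferase centre, averaged 559 ± 42.2 CPM in Model and 771 ± 34.7 CPM in Blank (SD, n = 3 each), with -0.46 (SE 0.14; adjusted p = 0.0255) on the log2 scale. Rps26, Rpl15 and Rpl7a kept their calls in every alternative except the fit without Blank 2 and Blank 3, whereas Rpl3 lost its call in 9 of 21 alternatives.

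The acidic stalk, formed by Rplp0 with Rplp1 and Rplp2, recruits elongation factors to the ribosome. Rplp0, which anchors it, was at 955, 912 and 818 CPM in the CDs libraries, 736, 947 and 756 CPM in the Model libraries and 1148, 1151 and 1056 CPM in the Blank libraries. Model 2 was the highest Model library and still lay below Blank. Its log2 fold change of -0.46 (SE 0.14; adjusted p = 0.0299) passed the test but was lost in 9 of 21 alternatives. Rplp1 overlapped between groups, with 228, 267 and 222 CPM in Model and 245, 279 and 273 CPM in Blank and a log2 fold change of -0.15 (SE 0.16; adjusted p = 0.457). Rplp2, named beside its partners after its values were seen, had -0.14 (SE 0.16; adjusted p = 0.493). The difference between these 3 was not tested.

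Abundant small subunit members were also examined. Rps15, which lies near the decoding centre, averaged 369.6 ± 26.3 CPM in Model and 477 ± 12.4 CPM in Blank (SD, n = 3 each) and was called lower at -0.37 (SE 0.12; adjusted p = 0.0309), a call lost in 11 of 21 alternatives. Rps3a1, the most abundant member, averaged 735 ± 83.5 CPM in Model and 909 ± 34.05 CPM in Blank (SD, n = 3 each), and its difference of -0.31 (SE 0.15; adjusted p = 0.116) was not called although its groups did not overlap. Rps7, another small subunit member named after its values were seen, was called lower at -0.39 (SE 0.13; adjusted p = 0.0403). Of the large subunit, Rpl5, which with Rpl11 and the 5S rRNA forms a particle that also binds the p53 regulator Mdm2, was called lower (-0.42, SE 0.13, adjusted p = 0.025), and Rpl11 was not (-0.31, SE 0.12, adjusted p = 0.0632); both are named after their values were seen, and the difference between them was not tested. Called subunit members lay between log2 fold changes of -0.66 for Rps26 and -0.31 for Rpl21. Besides Rps15, the called members closest to 0 were the large subunit proteins Rpl21 (-0.31), Rpl23 (-0.34), Rpl37 (-0.35), Rpl31 (-0.36) and Rpl18 (-0.36). These 5 calls were lost in 10 to 17 of 21 alternatives, among them the fits without any 1 of Blank 2, Blank 3 or Model 3. No subunit member of the cytosolic set had a fold change above 0 except Rpl13a, at 0.14 (SE 0.28; adjusted p = 0.708).

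Where a gene has a copy, both were compared. Rpl22 was called lower at -0.44 (SE 0.13; adjusted p = 0.0259), and its copy Rpl22l1 had a fold change of similar size that did not pass (-0.42, SE 0.18, adjusted p = 0.0845). Rpl36a was called lower at -0.41 (SE 0.13; adjusted p = 0.0315), while Rpl36al held 2 to 13 reads a library. Rpl7 stood at -0.34 (SE 0.13; adjusted p = 0.0607) and Rpl7l1 at 0.03 (SE 0.11; adjusted p = 0.827), neither called. Rpl10 (-0.13), Rpl39 (-0.29), Rps4x (-0.27), Rps27 (-0.25) and its copies Rps27l (-0.16) and Rps27rt (-0.17) were not called. Rpl3l, known as the striated muscle form of Rpl3, held 0 to 7 reads a library, and the copies Rpl10l and Rpl39l held 0 and 0 to 5 reads. The call of Rpl22 was lost in 8 and that of Rpl36a in 10 of 21 alternatives, both without any 1 of the 3 Blank libraries or Model 3, and Rpl7 was called with DESeq2 and without Model 2. Differences within pairs were not tested, and reads shared by copies make each value uncertain.

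Rpl9-ps6, named a pseudogene, had 39.6, 42.1 and 38.04 CPM in Model and 52.2, 60.02 and 53.1 CPM in Blank and was called lower at -0.47 (SE 0.11; adjusted p = 0.00845), beside -0.45 (SE 0.12; adjusted p = 0.0188) for Rpl9 itself, which was named for this comparison after its values were seen. Reads of near-identical copies could have been assigned to either. Rps23rg1, a retrogene of Rps23, held 0, 0 and 0 reads in CDs, 4, 0 and 1 in Model and 12, 21 and 22 in Blank. It was called lower in Model (edgeR adjusted p = 0.014) with so few reads that its size is not given. Rps23 itself had a log2 fold change of -0.12 (SE 0.15; adjusted p = 0.552).

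Called mitochondrial members were all lower in Model as well. In Model versus Blank 30 of 77 tested were called lower (39%) and 0 higher (0 also with DESeq2 and limma), beside the same 19.6% and 24.5% of all tested genes. Their median log2 fold change was -0.31, a level 19.2% lower in Model, and 72 of 77 lay below 0. Groups did not overlap for 46 members that were lower in Model (59.7%), beside 31.0% of all tested genes. They also did not overlap for 1 that was higher, Mrpl20, by a narrow margin, beside 30.0%. At an unadjusted p under 0.05, 39 passed by edgeR, 0 of them higher, beside 53.0% of all tested genes, with 28.0% higher. The count was 27 without acinar and mitochondrially encoded genes in the table, 28 without Model 1, Model 3 and CDs 1 (median -0.38) and 2 without Blank 2 and Blank 3. It was 19 without Blank 2, 16 without Blank 3, 17 without Model 2, 16 without Model 3 and 24 to 33 without any of the others. Of all tested genes, the fits without Blank 2, Blank 3, Model 2 and Model 3 called lower 1769 of 15108, 1885 of 15140, 1568 of 15091 and 1478 of 15098.

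**Figure D2:**
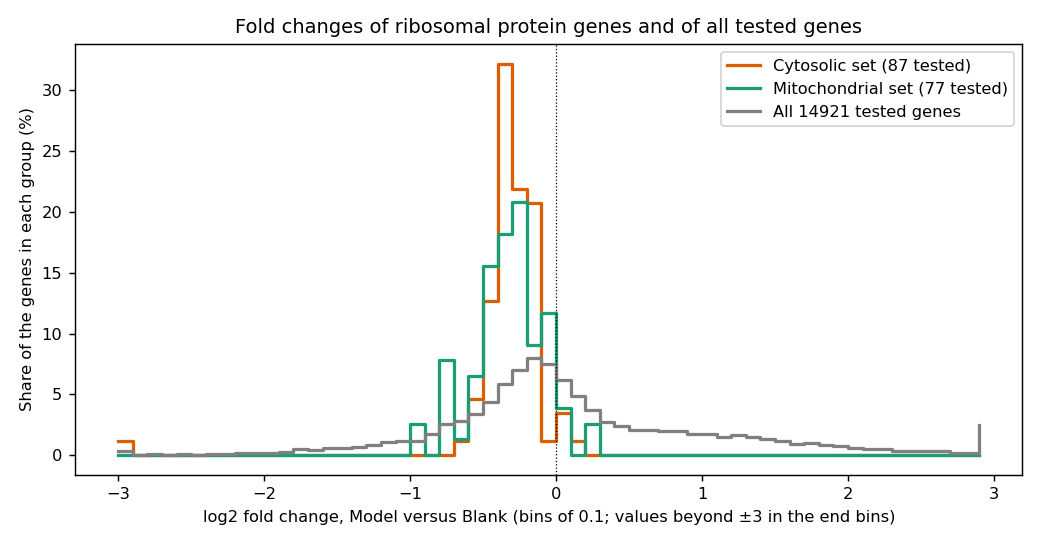
Distribution of log2 fold changes, Model versus Blank, for 87 tested cytosolic members, 77 tested mitochondrial members and all 14921 tested genes; the horizontal axis is the log2 fold change in bins of 0.1 (values beyond ±3 in the end bins) and the vertical axis the share of each group in percent. Of the cytosolic members 83 of 87 and of the mitochondrial members 72 of 77 lie left of 0, with medians of -0.30 and -0.31, while all genes have a median of -0.03.

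Calls came from both mitochondrial subunits, beside 19.6% of all tested genes called lower. They were 18 of 48 tested members named for the large subunit (37.5%) and 12 of 29 named for the small (41.4%), Mrps36 among these 12. Mrps9, a small subunit protein with a bacterial counterpart, was at 37.3, 29.98 and 32.2 CPM in the CDs libraries, 28.9, 27.98 and 28.7 CPM in the Model libraries and 50.3, 49.9 and 46.8 CPM in the Blank libraries. The 3 Model libraries lay within 1 CPM of each other and below all others. Its log2 fold change was -0.78 (SE 0.10; adjusted p = 0.000722), a level 41.8% lower in Model. The gene (ENSMUSG00000060679) is placed at chr1:42890393-42944843 on the plus strand of the deposited table.

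Mrps31, a small subunit protein particular to mitochondrial ribosomes, had 17.9, 18.7 and 19.8 CPM in the CDs libraries, 20.9, 14.99 and 16.7 CPM in the Model libraries and 33.98, 29.7 and 34.6 CPM in the Blank libraries. Every DSS-treated library lay below every Blank library. The log2 fold change of -0.90 (SE 0.14; adjusted p = 0.00155) corresponds to a level 46.6% lower in Model. Mrps9 and Mrps31 stayed called in all 21 alternatives, with adjusted p of at most 0.036 and 0.040. Mrps35, below the level required by the rule for named genes and added after its values were seen, had the lowest fold change of the set at -0.98 (SE 0.17; adjusted p = 0.00269).

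Mrpl12, which forms the stalk of the mitochondrial large subunit and is also known to bind mitochondrial RNA polymerase, had 44.2, 45.04 and 40.8 CPM in the CDs libraries, 40.7, 31.5 and 33.7 CPM in the Model libraries and 51.5, 56.7 and 65.1 CPM in the Blank libraries. Each Model library lay below each Blank library, and so did each CDs library. It was called lower at -0.71 (SE 0.13; adjusted p = 0.00274). Mrpl10, known to anchor that stalk, was called lower as well (-0.41, SE 0.13, adjusted p = 0.0351).

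Mrpl42 averaged 43.6 ± 3.90 CPM in CDs, 41.4 ± 7.08 CPM in Model and 70.1 ± 1.24 CPM in Blank (SD, n = 3 each), which is a log2 fold change of -0.76 (SE 0.13; adjusted p = 0.00213) in Model versus Blank. Mrpl9, a large subunit protein whose start region above joins a pyrimidine run to an ETS core, averaged 31.7 ± 2.71 CPM in CDs, 24.9 ± 4.52 CPM in Model and 40.9 ± 3.02 CPM in Blank (SD, n = 3 each), with -0.71 (SE 0.14; adjusted p = 0.0048). These 2 and Mrpl12 lost their calls only without Blank 2 and Blank 3. Mrps36, of the alpha-ketoglutarate dehydrogenase complex, averaged 14.01 ± 3.35 CPM in CDs, 12.6 ± 1.46 CPM in Model and 20.9 ± 3.57 CPM in Blank (SD, n = 3 each), with -0.73 (SE 0.20; adjusted p = 0.0173), lost in 4 of 21 alternatives.

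The 4 most abundant mitochondrial members, Mrpl12 among them, were called lower. Mrps21 averaged 33.00 ± 2.84 CPM in Model and 42.5 ± 4.95 CPM in Blank (SD, n = 3 each), with a log2 fold change of -0.36 (SE 0.13; adjusted p = 0.0453) that was lost in 14 of 21 alternatives. Mrps23 stood at -0.48 (SE 0.11; adjusted p = 0.00762) and Mrpl24 at -0.46 (SE 0.09; adjusted p = 0.00435) on the log2 scale, both lost only without Blank 2 and Blank 3. The called members closest to 0 among those of at least 5 FPKM were Mrps21, Mrps2 (-0.37), Mrpl40 (-0.39), Mrps17 (-0.40), Mrps24 (-0.41) and Mrpl10. Of 21 alternatives, the call of Mrps24 was lost in 16, those of Mrps2 and Mrpl10 in 8, that of Mrpl40 in 6 and that of Mrps17 in 1. Of the small family of Mrps18 genes, which share a bacterial ancestor, none was called by edgeR: Mrps18a had -0.34 (SE 0.13; adjusted p = 0.0548) and was called with DESeq2, with the gene length trend removed and without CDs 1, Mrps18b -0.17 (SE 0.16; adjusted p = 0.41) and Mrps18c -0.07 (SE 0.19; adjusted p = 0.785). Mrpl20, a large subunit protein, had 32.9, 36.97 and 29.01 CPM in the CDs libraries, 33.8, 35.9 and 27.5 CPM in the Model libraries and 27.5, 26.2 and 26.6 CPM in the Blank libraries. All 6 DSS-treated libraries lay above all 3 Blank libraries, but Model 3 and Blank 1 were nearly level. The log2 fold change in Model versus Blank was 0.28 (SE 0.13, edgeR adjusted p = 0.116) and was not called.

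**Figure D3:**
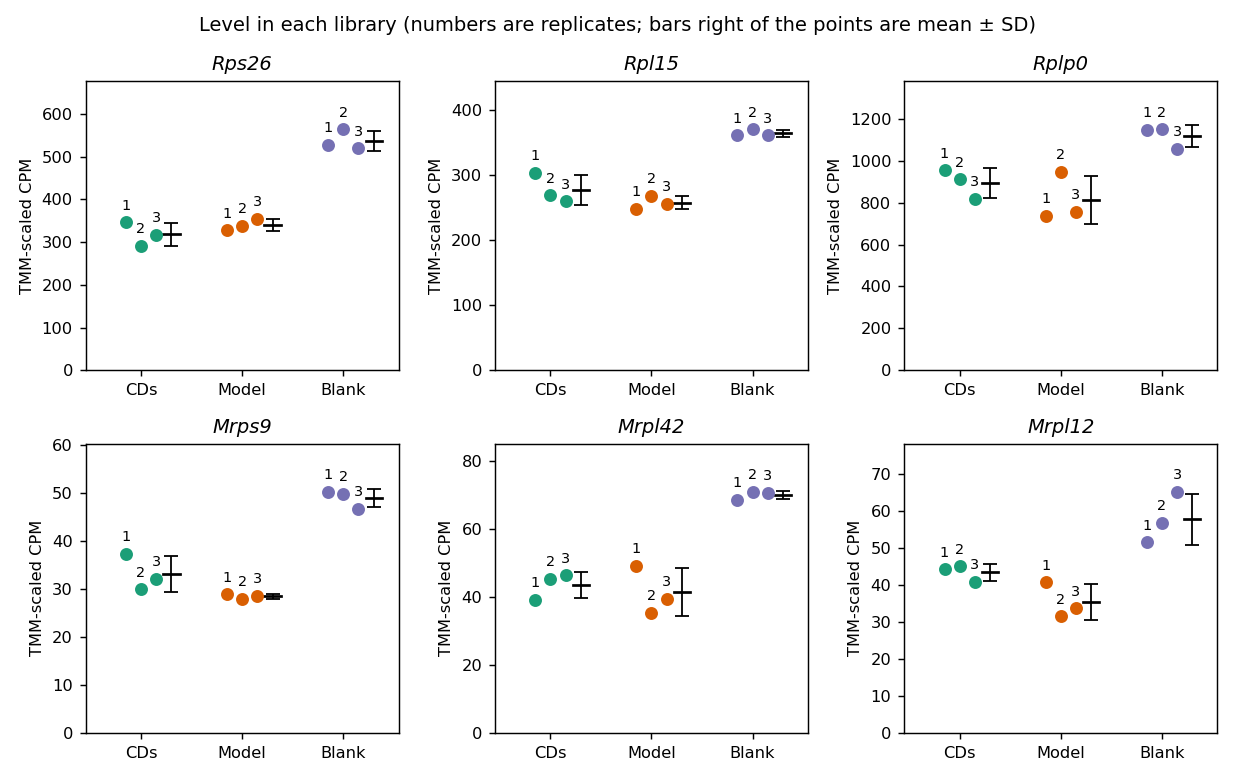
Level of 6 members in each library (TMM-scaled CPM, vertical axes from 0) in CDs, Model and Blank; points are libraries numbered by replicate, and bars to the right are mean ± SD (n = 3). For Rps26, Rpl15, Rplp0, Mrps9, Mrpl42 and Mrpl12 every CDs and every Model library lies below every Blank library, and Rps26 is at 292 to 354 CPM in the 6 DSS-treated libraries and 519.5 to 564 CPM in Blank.

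**Figure D4:**
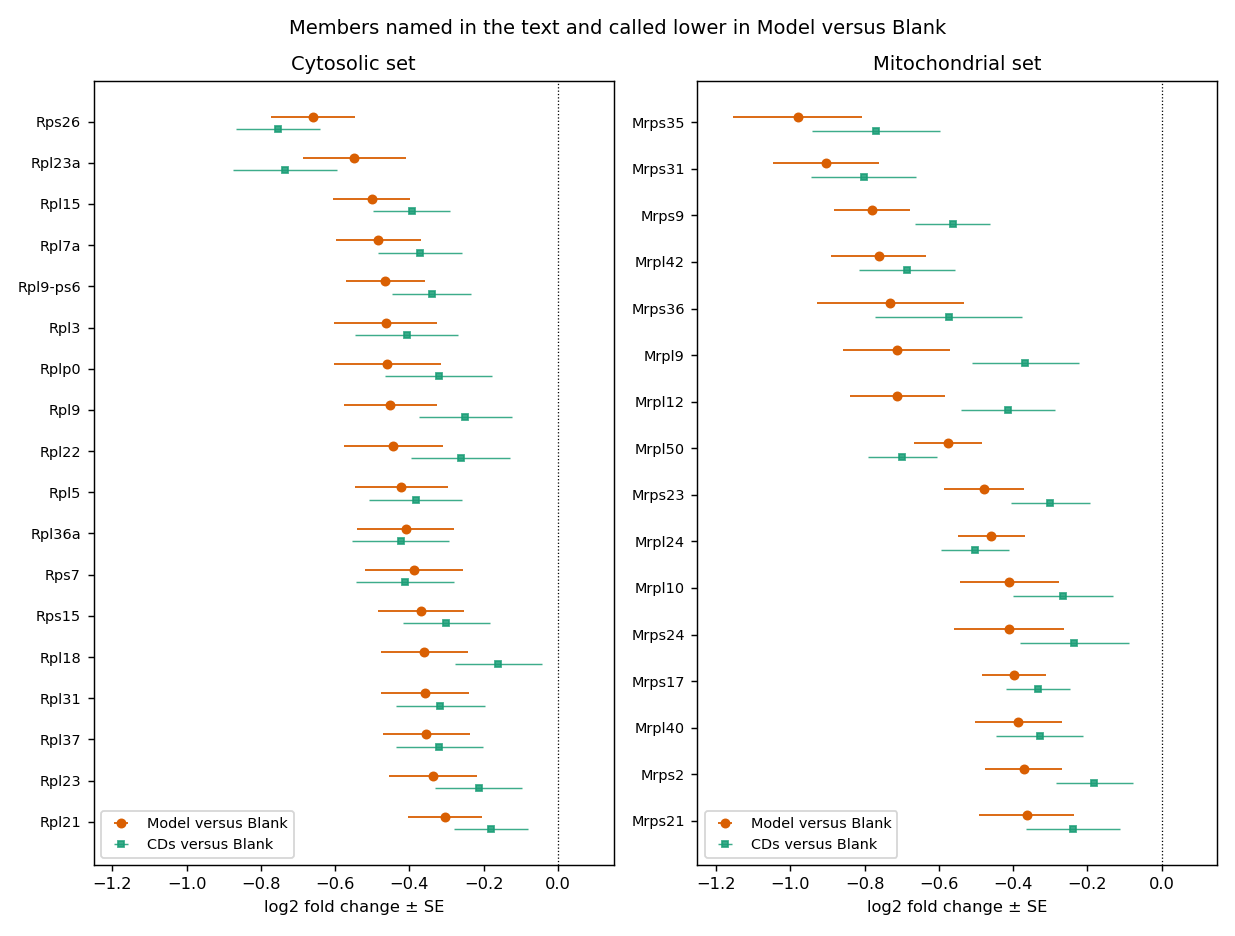
Log2 fold change ± SE (horizontal axis) of the 18 cytosolic (left) and 16 mitochondrial (right) members named in the text that were called lower in Model versus Blank, with the value of the same genes in CDs versus Blank; Rps23rg1 is left out because of its few reads. Circles (Model) lie between -0.66 and -0.31 in the cytosolic and between -0.98 and -0.36 in the mitochondrial panel; both comparisons share the Blank libraries.

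Some genes of the ribosome carry names outside the rule. Of 3 tested, Rack1, a small subunit scaffold, was called lower (-0.45, SE 0.14, adjusted p = 0.0272; lost in 10 of 21 alternatives), and Fau, which encodes a ubiquitin-type fusion with a ribosomal protein, was not, at -0.13 (SE 0.15; adjusted p = 0.485). Of 17 elongation factors and other TOP messengers 9 were called lower and 0 higher, with a median log2 fold change of -0.33, beside 19.6% of all tested genes called lower and 24.5% called higher. Among these, Eif4b, an initiation factor that helps unwind messengers, had -0.58 (SE 0.11; adjusted p = 0.00416), Eif3l -0.54 (SE 0.08; adjusted p = 0.0013) and Eef1b2, which exchanges nucleotides on elongation factor 1A, -0.52 (SE 0.14; adjusted p = 0.0172). Of 26 initiation factors and regulators of initiation 3 were called lower and 1 higher, with a median of -0.10, a share below the background in both directions. This list held the repressors Eif4ebp1 and Eif4ebp2, and the initiation factors Eif4b and Eif3l were counted with the TOP messengers. The share therefore depends on how the lists were split. Eif4ebp1, a repressor of cap-dependent initiation that mTOR inactivates, was the higher one at 1.22 (SE 0.19; adjusted p = 0.00166), and its relative Eif4ebp2 was lower at -0.76 (SE 0.11; adjusted p = 0.0013). Eif2b1, a subunit of the guanine exchange factor of eIF2, was lower at -0.91 (SE 0.16; adjusted p = 0.00241), as was Eif3i, named after its values were seen, at -0.40 (SE 0.09; adjusted p = 0.0095).

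Genes that make ribosomes rather than form them were examined next. Of 60 ribosome biogenesis genes 2 were called lower and 0 higher, with a median log2 fold change of 0.02, below the 19.6% and 24.5% of all tested genes. The 2 were Utp20 (-1.42, SE 0.16, adjusted p = 0.000395) and Tsr1 (-0.49, SE 0.15, adjusted p = 0.0271), both factors of small subunit assembly (Tsr1 lost its call in 5 of 21 alternatives), and Gnl2, a large subunit GTPase, stood at 0.39 (SE 0.14; adjusted p = 0.0503) and was called in 7 of 21 alternatives. Of 16 genes of RNA polymerase I and rRNA transcription 5 were called lower and 0 higher, with a median of -0.28, beside the same background. Polr1d and Polr1c, subunits that polymerases I and III share, had -0.59 (SE 0.09; adjusted p = 0.00115) and -0.58 (SE 0.12; adjusted p = 0.00643), and Ubtf, which binds rDNA, had -0.35 (SE 0.08; adjusted p = 0.0076). The other 2 were Polr2e and Ttf1, named after their values were seen, at -0.42 and -0.41. The differences between these lists and the ribosomal sets were not tested.

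Genes that serve the mitochondrial ribosome were also lower where called. Of 35 genes of mitochondrial translation and transcription 21 were called lower and 0 higher, with a median log2 fold change of -0.56, beside 19.6% of all tested genes called lower and 24.5% higher, which also stand beside the next counts. Oxa1l, which inserts new mitochondrial proteins into the inner membrane, had -0.65 (SE 0.09; adjusted p = 0.00106), the isoleucyl-tRNA synthetase Iars2 -0.61 (SE 0.09; adjusted p = 0.0012) and the ribosome recycling factor Gfm2 -0.67 (SE 0.12; adjusted p = 0.00326). Of 24 mitochondrial ribosome proteins outside the name rule and assembly factors 7 were lower and 0 higher, with a median of -0.31. They included the subunit protein Dap3 (-0.46, SE 0.09, adjusted p = 0.00451), Ptcd3 (-0.61, SE 0.15, adjusted p = 0.0124) and the assembly GTPase Gtpbp10 (-0.77, SE 0.12, adjusted p = 0.00183). Of the 13 messengers encoded in mitochondrial DNA 6 were lower and 0 higher, with a median of -0.64. Among them mt-Co2 had -0.88 (SE 0.26; adjusted p = 0.0235), mt-Atp6 -0.76 (SE 0.19; adjusted p = 0.0137) and mt-Co3 -0.68 (SE 0.20; adjusted p = 0.0251), calls that were lost in 3 to 5 of 20 alternatives, each without Model 2 and without Model 3. Mitochondrially encoded genes took 3.48% to 5.80% of reads in CDs, 3.81% to 4.93% in Model and 6.60% to 6.67% in Blank.

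Of 27 genes that regulate growth and ribosome synthesis 6 were called lower and 1 higher, with a median log2 fold change of -0.15, beside the same 19.6% and 24.5% of all tested genes; the share called lower is near the background. Larp4, a binder of poly-A and ribosomal protein messengers, had -0.41 (SE 0.08; adjusted p = 0.00468), the kinase Rps6ka1 -0.81 (SE 0.20; adjusted p = 0.0108), and Deptor, an inhibitor of mTOR, -0.996 (SE 0.26; adjusted p = 0.014). Ddit4, a stress-induced inhibitor of mTOR complex 1, was the only one called higher at 1.32 (SE 0.40; adjusted p = 0.0259), named after its values were seen.

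Levels of cell type markers were set beside these differences. The summed level of 13 epithelial markers was 9493, 13453 and 19432 CPM in CDs, 18345, 9819 and 10572 CPM in Model and 20858, 16748 and 26316 CPM in Blank, and 5 of 13 were called lower in Model versus Blank and 0 higher, where 19.6% and 24.5% of all tested genes were. The stem cell marker Lgr5 had -3.80 (SE 0.37; adjusted p = 0.000297) and Cdx2 -1.78 (SE 0.39; adjusted p = 0.00692). All 13 had reads in every group. Of 10 leukocyte markers 8 were called higher, with sums of 1889 to 2756 CPM in CDs, 1441 to 1999 in Model and 425 to 634 in Blank. All 10 fibroblast and matrix markers were called higher, with sums of 7610 to 8788 CPM in CDs, 7207 to 15065 in Model and 2702 to 3104 in Blank. Of 8 smooth muscle markers 0 were called (2637 to 6502 CPM in CDs, 2908 to 4388 in Model and 3107 to 4421 in Blank).

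Among markers of tissues other than colon, 10 of 11 tested acinar genes were called higher in Model, beside 24.5% of all tested genes. Only Model 1 and Model 3 had high acinar sums (7626 and 63913 CPM), and Model 2 at 26.4 CPM lay below every Blank library. Of 12 acinar genes 6, Pnlip and Cpa1 among them, had no read in Blank. Of 6 erythroid genes 5 were called higher, beside the same 24.5% (17.8 to 35.5 CPM in sum in CDs, 81.5 to 409 in Model and 18.2 to 24.9 in Blank). Of 2 tested prostate genes Spink1 was higher and Tgm4 lower, of 7 skeletal muscle genes Tnnt3 was higher and Myh2 lower, and the 1 tested testis gene was not called; these were named after their values were seen. The part of any of these markers in the fold changes of ribosomal protein genes was not tested.

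Libraries of 1 group differed from each other as a block in the cytosolic set. Relative to the Blank mean, the median log2 level over the tested cytosolic members was -0.06, -0.13 and -0.42 in CDs 1, 2 and 3, -0.40, -0.13 and -0.38 in Model 1, 2 and 3 and -0.07, 0.06 and 0.01 in Blank. Model 2 was the highest Model library for 75 of 87 cytosolic members (86.2%), beside 36.5% of all tested genes, and CDs 3 was the lowest CDs library for 77 of 87 (88.5%), beside 31.8%. CDs 3 thus lay near Model 1 and Model 3, and CDs 1, CDs 2 and Model 2 lay nearer to Blank. By the epithelial sums above, Model 2 had the lowest level of its group and CDs 3 the highest of its group; the part of epithelium in this spread was not tested.

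Mitochondrial members did not follow the same order. Their median levels relative to Blank were -0.15, -0.16 and -0.29 in CDs, -0.23, -0.36 and -0.38 in Model and -0.08, 0.00 and 0.07 in Blank. Model 2 was the highest Model library for only 13 of 77 members (16.9%), and Model 1 was the highest for 48 (62.3%). CDs 3 was the lowest CDs library for 41 of 77 (53.2%). The medians of all 6 DSS-treated libraries thus lay below those of the 3 Blank libraries for the mitochondrial set, whereas for the cytosolic set CDs 1 lay level with Blank 1.

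**Figure D5:**
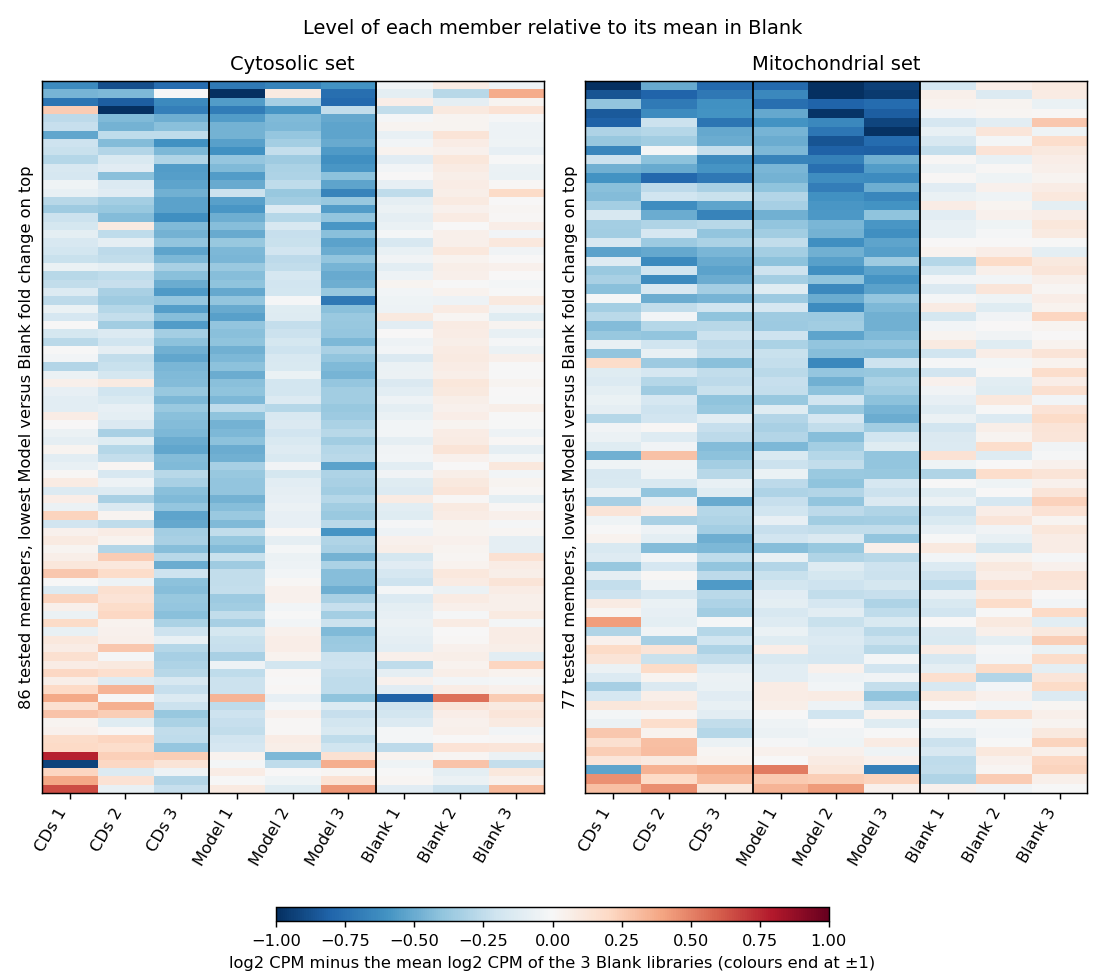
Level of 86 cytosolic (left) and 77 mitochondrial (right) tested members in each library as log2 CPM minus the mean of the 3 Blank libraries (colour, blue lower and red higher, ending at ±1); rows are members ordered by fold change in Model versus Blank, columns are libraries, and Rps23rg1 is left out because of its few reads. In the cytosolic panel CDs 3, Model 1 and Model 3 are blue as columns (medians -0.42, -0.40 and -0.38) beside a paler Model 2 (-0.13); in the mitochondrial panel Model 2 (-0.36) is as blue as Model 3 (-0.38).

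CDs was compared with Model to ask whether carbon dots altered the response to DSS. No member was called, as no gene was: edgeR called 0 of 14921 genes (0%), with a smallest adjusted p of 0.891, and 788 genes (5.28%) passed an unadjusted p under 0.05. Among members 0 cytosolic and 2 mitochondrial genes passed that unadjusted level. DESeq2 called 51 genes and limma 0, with 0 members of either set. Without Model 1, Model 3 and CDs 1, which leaves 1 Model library, edgeR called 752 of 15411 genes higher and 489 lower, with 0 members of either set and a smallest adjusted p of 0.000211. Without Blank 2 and Blank 3 it called 0 genes. The median log2 fold change was 0.11 for cytosolic and 0.10 for mitochondrial members, beside 0.02 for all tested genes, and 78 of 87 and 66 of 77 were above 0, beside 55.2% of all. Without Model 1, Model 3 and CDs 1 the cytosolic median was -0.12, so its direction rests on those libraries.

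The 2 mitochondrial genes were Mrpl9 and Mrpl12, both large subunit members described above. Mrpl9 was at 32.97, 33.5 and 28.6 CPM in CDs and 29.6, 24.7 and 20.6 CPM in Model. These groups overlapped, with a log2 fold change of 0.35 (SE 0.14; adjusted p = 0.936). Mrpl12 did not overlap between CDs and Model, with a log2 fold change of 0.30 (SE 0.13; adjusted p = 0.936). Mrps9, with 0.22 (SE 0.10; adjusted p = 0.936), did not overlap either. In all 8 of 77 mitochondrial members and 2 of 87 cytosolic members lay higher in CDs without overlap, beside 3.22% of all tested genes, and 0 members lay lower without overlap, beside 4.77%.

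Among the cytosolic members of smallest p was Rps10, and Rps23rg1 was set aside for its reads. Rps10, counted at a low level as described, was at 4.79, 3.29 and 3.30 CPM in CDs and 2.83, 1.99 and 3.08 CPM in Model, with a log2 fold change of 0.53 (SE 0.25; adjusted p = 0.936). It did not pass, and the intervals of other members leave room for sizeable differences: the 95% interval of the log2 fold change was -0.35 to 0.16 for Rps26, -0.19 to 0.46 for Rplp0, -0.22 to 0.42 for Mrps31 and -0.01 to 0.45 for Mrps9. Thus the absence of calls does not show that the groups were alike.

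CDs versus Blank, which shares its Blank libraries with Model versus Blank, asked how colon given DSS with carbon dots differed from untreated colon. Of 87 cytosolic members 10 were called lower (11.5%) and 0 higher (0 also with DESeq2 and limma), beside 13.8% of all tested genes called lower and 21.8% called higher. That share is near the background and is not a result about these genes as a set. The median log2 fold change was -0.21, and 31 members lay lower without overlap (35.6%), beside 25.9% of all genes. The count was 28 without Model 1, Model 3 and CDs 1 and 0 without Blank 2 and Blank 3. It was 3 without any 1 of Blank 1, Blank 2, Blank 3 or CDs 2, 4 without CDs 3 and 6 without Model 3.

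Rps26 and Rpl23a had the lowest fold changes of the subunit genes again. Rps26 stood at -0.75 (SE 0.11; adjusted p = 0.0017) and Rpl23a at -0.74 (SE 0.14; adjusted p = 0.00461) on the log2 scale in CDs versus Blank. The other called members were Rpl36a (-0.42), Rps7 (-0.41), Rpl3 (-0.41), Rpl15 (-0.39), Rpl5 (-0.38), Rpl7a (-0.37), Rpl9-ps6 (-0.34) and Rps23rg1. With no read in CDs, Rps23rg1 was at least 6.48-fold lower than in Blank, taking 3 reads per CDs library as the limit (edgeR adjusted p = 0.00631). Members called in Model and not in CDs, such as Rplp0 at -0.32 (SE 0.14; adjusted p = 0.11), are not shown to differ between these comparisons, since CDs versus Model called none.

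Of 77 mitochondrial members 15 were called lower in CDs versus Blank (19.5%) and 0 higher (0 also with DESeq2 and limma; Mrpl20 passed an unadjusted p under 0.05), beside the same 13.8% and 21.8%. Their median log2 fold change was -0.21. Mrpl50 had the smallest p: it was at 33.8, 29.6 and 31.1 CPM in the CDs libraries, 36.8, 33.3 and 32.9 CPM in the Model libraries and 51.7, 49.6 and 52.2 CPM in the Blank libraries. All 6 DSS-treated libraries lay below Blank, and the log2 fold change was -0.70 (SE 0.09; adjusted p = 0.00105) in CDs versus Blank, beside -0.58 (SE 0.09; adjusted p = 0.00166) in Model versus Blank. Mrps31 (-0.80, SE 0.14, adjusted p = 0.00338) and Mrpl24 (-0.50, SE 0.09, adjusted p = 0.00369) came next by p. Mrpl42 (-0.69), Mrps9 (-0.56) and Mrps36 (-0.57) were also called, and Mrpl9 (-0.37, SE 0.14, adjusted p = 0.074) was not. The count was 0 without Blank 2 and Blank 3, 8 without Blank 2, 8 without Blank 3, 9 without CDs 3 and 18 without Model 1, Model 3 and CDs 1.

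Over all 6 DSS-treated libraries, 30 of 87 cytosolic members (34.5%) and 27 of 77 mitochondrial members (35.1%) lay below all 3 Blank libraries, beside 22.6% of all tested genes. In the other direction 0 cytosolic members and 1 mitochondrial member, Mrpl20, lay above all 3 Blank libraries, beside 24.5% of all tested genes. For Mrpl20 the margin of Model 3 over Blank 1 was narrow. Of the other lists, CDs versus Blank called lower 7 of 17 elongation and TOP messengers, 18 of 35 mitochondrial translation genes, 6 of 24 mitochondrial assembly genes, 2 of 16 RNA polymerase I genes, 1 of 60 biogenesis genes and 0 of 13 mitochondrially encoded genes, beside 13.8% of all tested genes. CDs versus Model called 0 genes of any of these lists.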

How the data were processed

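Poly-A RNA of mouse colon was sequenced after Trizol extraction and random priming without a strand mark, per the labels' protocols. The submitters' processing notes name HTSeq 0.9.1, HISAT2 2.1.0 and fastp 0.22.0; no source used here gives the genome build or the strand setting. Each gene has a deposited count of reads and a deposited FPKM per library, per the file headers. The deposited FPKM equalled count over gene length and library total in 100% of values (tolerance 1e-06), so FPKM served only to compare levels between genes, for the rule for named genes and in 1 alternative.

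Counts of all 9 libraries were fitted with edgeR 4.0.16 (R 4.3.3; quasi-likelihood F test, 1 coefficient per group, TMM scaling, edgeR's expression filter, two-sided p adjusted by Benjamini and Hochberg over 14921 genes). SE is the log2 fold change over the root of F. The test was tested on simulated counts before use. Groups came from the titles. The rule named, per set, the 6 called members with the lowest and the 6 with the highest log2 fold change in Model versus Blank among genes of at least 5 FPKM in 1 group, the 4 most abundant members, for each of the other comparisons the 3 members of smallest p, copy pairs, and 3 members of each list; some of these genes are not reported here. The members and lists were chosen with earlier results of these data known. Alternatives were RLE scaling, total counts, scaling without the ribosomal genes, a table without acinar and mitochondrially encoded genes, removal of a gene length trend, no filter, DESeq2 1.42.0, limma 3.58.1 on log2(FPKM + 1), a replicate block, the 6 compared libraries alone, and libraries left out.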

Additional observations from a re-analysis of the deposited data

How the results depend on the processing

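Each result was recomputed under 20 or 21 alternatives; the cause of a difference was not tested unless libraries or genes were removed. For Model versus Blank, 24 cytosolic members were called lower, and 6 were called with total counts only, 14 without a filter on low counts, 7 with limma on log2(FPKM + 1), 5 without Model 1, Model 3 and CDs 1 (median log2 fold change -0.14) and 0 without Blank 2 and Blank 3; with each library left out in turn the range was 4 to 28. The 30 mitochondrial calls became 2 without Blank 2 and Blank 3 (median -0.22) and ranged from 16 to 33 with each library left out; the limma median was -0.21. For CDs versus Model the cytosolic median turned to -0.12 without Model 1, Model 3 and CDs 1. For CDs versus Blank, the 10 cytosolic calls became 3 with total counts, 6 in the fit of the 6 compared libraries, 18 with DESeq2, 3 with limma, 28 without Model 1, Model 3 and CDs 1 and 0 without Blank 2 and Blank 3, with a range of 3 to 12 with each library left out. The 15 mitochondrial calls became 7 with total counts, 9 with limma (median -0.11) and 0 without Blank 2 and Blank 3, with a range of 8 to 14. A group left with 1 library was taken to have the spread of the others.

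With the replicate number as a block, Model versus Blank called 16 cytosolic and 26 mitochondrial members lower and CDs versus Blank 6 and 10. The numbers share no known source: deviations of same-numbered libraries correlated at -0.04 to -0.01 for Model and Blank, -0.37 to 0.21 for CDs and Model and 0.06 to 0.17 for CDs and Blank, and 4 of 9 libraries correlated best with their own number.

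Single genes that turned sign in Model versus Blank were Rplp1 (0.0050), Rpl10 (0.0093), Rps27 (0.011), Ctrl (-0.46) and Clps (-2.001) without Model 1, Model 3 and CDs 1, Rpl7l1 (-0.0083 without Blank 2, and up to 0.092 with other libraries left out), Rps27l (0.11) and Mrps18c (0.11) without Blank 2 and Blank 3, and Mrps18c also with the gene length trend removed (0.0095), without Blank 3 (0.041) and without Model 3 (0.024). In CDs versus Model, Rps23rg1 had a fold change of 0 without Model 1, Model 3 and CDs 1. Depth limits members such as Rpl24 and Rps23rg1, with few reads a library.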
